A study of Mus musculus with 6 samples.

Results

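The potassium, sodium and chloride channel genes of mouse skeletal muscle were compared between muscles that carried a constitutively active aryl hydrocarbon receptor and muscles that carried green fluorescent protein. Members were chosen by gene symbol alone: every potassium channel name (Kcn, 1 or more letters and a number), every sodium channel name (Scn, a number and a or b) and every chloride channel name (Clcn and a number). This gave 113 genes of the 49315 in the count table, of which 92 were potassium, 14 sodium and 7 chloride channel genes. The libraries came from the gastrocnemius of male C57BL6J mice, an inbred strain, that were injected at 5 months of age and sampled 5 months later. The AAV9-HSA-CAAHR group (replicates 31, 34 and 36, CAAHR below) received an adeno-associated virus with a mouse AHR from which the ligand-binding domain had been deleted, and the AAV9-HSA-GFP group (replicates 42, 43 and 46, GFP below) received the same serotype with the fluorescent protein. In both the transgene had the HSA promoter, of human skeletal actin, which is active in muscle fibres, and the virus was given into the muscle. All 6 libraries therefore received a virus, and the labels do not record the part of the gastrocnemius taken for RNA. No muscle without virus was among them, so a fall with CAAHR and a rise with GFP cannot be told apart.

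AHR is a transcription factor that normally becomes active when it binds a ligand, and the deleted form is active without one. A skeletal muscle fibre fires an action potential through a voltage-gated sodium channel, recovers through voltage-gated potassium channels, and holds its resting potential with a chloride conductance and with inward rectifier potassium channels. Two-pore-domain channels carry a background leak of potassium. Many further channel genes belong to nerve, smooth muscle or immune cells, which are also present in whole muscle.

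Library totals ran from 43432994 to 58825752 counts. All 8 muscle markers were detected, 3 of them lower, with summed levels of 159920 to 216512 CPM in CAAHR (counts for every 1000000 in the library, after TMM scaling, the trimmed mean of M values, which evens out library composition) and 236792 to 243470 in GFP. Ahr was at 9.97, 22.8 and 17.3 CPM in CAAHR replicates 31, 34 and 36 and at 1.87 to 2.55 CPM in GFP, and all 6 AHR pathway genes examined rose, in accord with the labels. Slow-fibre transcripts differed among the CAAHR muscles, with summed levels of 2818, 661 and 2546 CPM in replicates 31, 34 and 36 against 235 to 474 CPM in GFP. None of the 9 slow-fibre genes passed the edgeR test, with 8 at an unadjusted p under 0.05, while DESeq2 called 8 and limma-voom 2. Of 9 fast-fibre genes 2 fell. The labels number the replicates without naming animals, so the p-values measure the spread between these libraries.

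Of the 113 channel genes, 68 had enough counts to be tested. The other 45 never exceeded 28 counts in a library, 17 of them held 3 counts or fewer in every library, and Kcne1, Kcnj1, Kcnk15, Kcnk16 and Kcnk18 held none. In edgeR (quasi-likelihood test, Benjamini-Hochberg adjustment over all 15847 tested genes), 6 channel genes rose in CAAHR muscle (Kcnk1, Kcns1, Kcnf1, Kcnma1, Kcnk2 and Kcnc1) and 3 fell (Kcnq5, Kcne4 and Scn3b). That was 8.82% of tested channel genes higher, where 3.04% of all tested genes were, and 4.41% lower, where 4.57% of all were. Over 2-fold there were 4 higher channel genes (0.972% of all tested genes) and 2 lower (2.51% of all). The split of 6 higher and 3 lower was 6 and 5 with upper quartile scaling and 11 and 3 with library size only. A further 18 channel genes had an unadjusted p under 0.05 without passing. The 2 groups did not overlap for 28 tested channel genes, 13 higher and 15 lower (41.2%, against 29.9% of all tested genes). The median log2 fold change of the tested channel genes was -0.034, beside 0.009 for all tested genes, and 32 values were above 0 and 36 below.

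**Figure D1:**
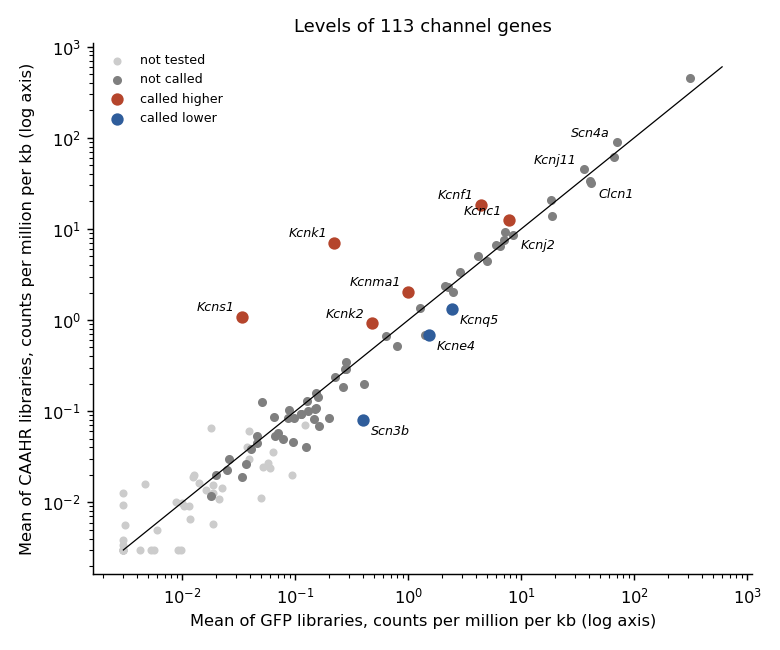
Each point is 1 of the 113 channel genes, placed by its mean level in the 3 GFP libraries (horizontal) and in the 3 CAAHR libraries (vertical), both in TMM-scaled CPM per kb of exons on log axes, with the line of equal levels. Kcnk1 (0.222 against 7.08) and Kcns1 (0.0334 against 1.09) lie farthest above the line among tested genes, Scn3b (0.400 against 0.0798) lies farthest below, and Scn4a, Kcnj11, Clcn1 and Kcnj2 lie near it. Genes with a mean close to 0 are drawn at the lower end of the axes.

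The sequence just before the transcription start was read for the 3 genes with the largest rises and for Kcnk2, whose window was the one among raised channel genes with most matches to the AHR motif, and Cyp1a1, the standard AHR target, is shown for comparison. AHR binds DNA with its partner ARNT at sites with the core GCGTG. The 250 bases before each start are from RefSeq (GRCm38.p6), on the strand of the gene, and capitals mark GCGTG or its reverse complement CACGC.

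Kcnk1, chr8:125994852-125995101, plus strand: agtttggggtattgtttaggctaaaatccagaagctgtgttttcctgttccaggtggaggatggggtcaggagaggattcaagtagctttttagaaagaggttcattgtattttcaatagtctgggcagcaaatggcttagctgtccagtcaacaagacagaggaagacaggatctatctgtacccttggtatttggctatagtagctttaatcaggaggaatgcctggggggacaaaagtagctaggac
Kcns1, chr2:164171114-164171363, minus strand: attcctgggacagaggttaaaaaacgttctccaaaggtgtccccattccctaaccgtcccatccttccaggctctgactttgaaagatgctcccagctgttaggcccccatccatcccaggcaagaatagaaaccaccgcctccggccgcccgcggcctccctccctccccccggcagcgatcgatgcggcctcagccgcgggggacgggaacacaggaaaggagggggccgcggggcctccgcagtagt
Kcnf1, chr12:17176889-17177138, minus strand: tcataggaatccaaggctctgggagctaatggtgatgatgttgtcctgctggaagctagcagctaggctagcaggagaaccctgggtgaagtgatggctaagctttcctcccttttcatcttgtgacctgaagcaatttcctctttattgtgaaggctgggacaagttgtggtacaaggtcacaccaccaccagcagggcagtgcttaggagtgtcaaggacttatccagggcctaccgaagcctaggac
Kcnk2, start 4 of 4, chr1:189343354-189343603, minus strand: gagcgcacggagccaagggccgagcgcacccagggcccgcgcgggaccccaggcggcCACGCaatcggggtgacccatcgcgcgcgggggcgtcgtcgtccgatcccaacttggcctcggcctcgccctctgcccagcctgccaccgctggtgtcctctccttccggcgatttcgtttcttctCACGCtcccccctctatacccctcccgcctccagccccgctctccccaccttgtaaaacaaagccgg
Cyp1a1, chr9:57697363-57697612, plus strand: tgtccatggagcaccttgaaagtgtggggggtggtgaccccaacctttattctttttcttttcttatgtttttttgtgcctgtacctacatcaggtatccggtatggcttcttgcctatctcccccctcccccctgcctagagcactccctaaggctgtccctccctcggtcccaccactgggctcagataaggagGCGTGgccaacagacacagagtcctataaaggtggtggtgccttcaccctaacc

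The windows of Kcnk1, Kcns1 and Kcnf1 held no GCGTG on either strand, and neither did those of Kcnma1, Kcnc1, Kcnq5 and Kcne4. Kcnk2 has 4 starts in the table: its start 2 held 1 match and its start 4 held 2, at 193 and 67 bases before the start. The Cyp1a1 window held 1 match, 54 bases before the start, and that of Ahrr, the AHR repressor, held 3. The core was present in 28.2% of all 32851 promoters and in 28.7% of 115 channel gene promoters. The longer form TNGCGTG, which contains the core, was in 4.1% and 4.3% of them, and 1 of the 2 matches in the shown Kcnk2 window has it. The table had promoters for 84 of the 113 genes, Scn3b not among them. These matches describe letters in short windows, and sites elsewhere in the genes were not searched.

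Kcnk1 had the smallest p-value of the channel genes. It encodes TWIK-1, a weak potassium leak channel of the two-pore-domain family (ENSMUSG00000033998, chromosome 8, 125995170 to 126030685, GRCm38). Its level was 14.6, 13.5 and 19.4 CPM in CAAHR replicates 31, 34 and 36 and 0.456, 0.577 and 0.453 CPM in GFP replicates 42, 43 and 46. Every CAAHR muscle was far above every GFP muscle, and the spread within each group was small beside the gap. These levels rest on 736, 774 and 1181 counts against 22, 24 and 24. The log2 fold change was 5.00 ± 0.20 (SE), a 32.0-fold rise (edgeR quasi-likelihood test, Benjamini-Hochberg adjusted p 1.86e-06). With each library left out in turn it stayed called, with log2 fold changes from 4.82 to 5.12. In CAAHR replicate 34, whose slow-fibre level was nearest to that of GFP muscle, Kcnk1 was at 13.5 CPM. The antisense gene Gm45875 shares 8.0% of the exon bases of Kcnk1 and held 3, 4 and 4 counts in CAAHR and 0 in every GFP library. In whole muscle, more RNA per cell and more cells of a type cannot be told apart.

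Levels of different genes were compared per kb of exons. On that scale Kcnk1 went from 37th of the 113 channel genes in GFP muscle to 14th in CAAHR muscle. It was 38th, 35th and 37th in GFP replicates 42, 43 and 46 and 15th, 14th and 12th in CAAHR replicates 31, 34 and 36. The TPM scale uses the same counts and exon lengths, so within a library it gives the same places by construction and is no separate check. In CAAHR muscle its mean of 7.08 ± 1.39 CPM per kb (SD, n = 3) lay among Kcnj2 (8.67 ± 1.71), Kcng4 (7.59 ± 1.51) and Kcnj8 (6.41 ± 0.724), each of which it differed from by less than the SD of that gene. In GFP muscle Kcnj2 was at 8.53 ± 1.64 and Kcnk1 at 0.222 ± 0.0316 CPM per kb.

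Against the main channels of the fibre, the CAAHR mean of Kcnk1 was below those of Scn4a, Kcnj11, Kcna7, Clcn1, Kcnj12, Kcnc1 and Kcnj2. It was above that of Kcnma1 (2.04 ± 0.415 CPM per kb). The place of Kcnma1 depends on the exon length used, 16976 bases against 2235 for Kcnk1. Before division by length its CAAHR mean was the higher, 34.6 against 15.8 CPM. The level per kb of Kcnk1 was 7.89% ± 1.35 (SD, n = 3) of that of Scn4a, the sodium channel of the muscle action potential, against 0.272% to 0.372% in the 3 GFP muscles. It was 23.1% ± 7.34 of Clcn1, the chloride channel that steadies the resting potential, against 0.532% ± 0.0770. Relative to the inward rectifiers it was 15.9% ± 4.12 of Kcnj11, 34.9% ± 10.3 of Kcnj12 and 84.2% ± 26.0 of Kcnj2 in CAAHR, with 0.621%, 1.21% and 2.71% in GFP. Kcnk1 exceeded Kcnj2 in CAAHR replicate 36 (112%) and not in replicates 31 and 34 (61.1% and 79.1%). Relative to Kcna7, a voltage-gated potassium channel of fast muscle, it was 21.0% ± 3.81 against 0.549% ± 0.123.

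**Figure D2:**
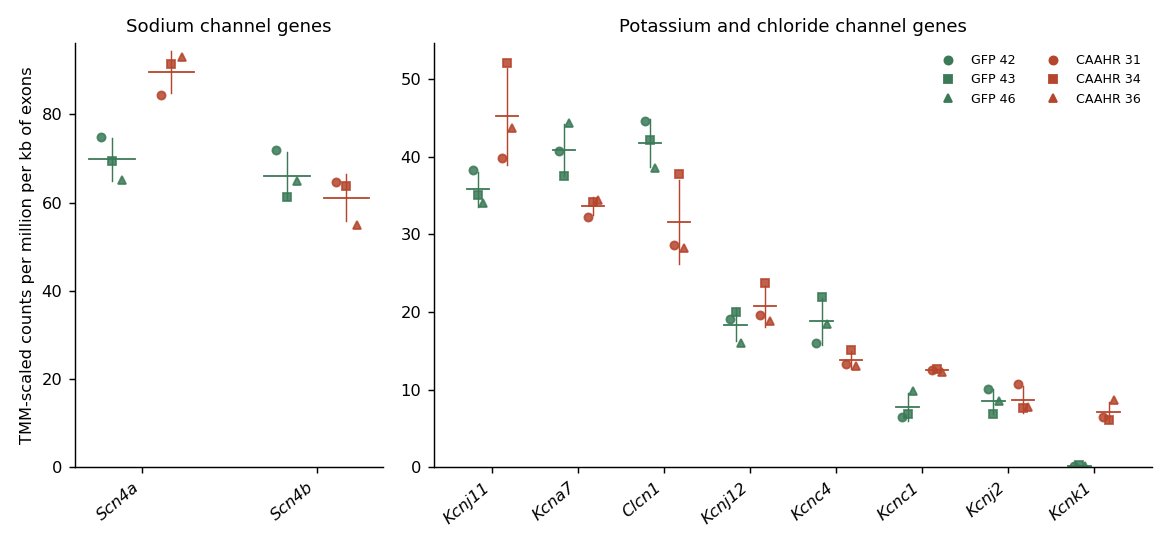
Level per library, in TMM-scaled CPM per kb of exons on linear axes that start at 0, of abundant channel genes and Kcnk1, with sodium channel genes on the left and potassium and chloride channel genes on the right. Bars are the mean and the SD of 3 libraries, and shapes mark replicates. Kcnk1 moved from 0.222 to 7.08, near Kcnj2 (8.53 and 8.67), while Scn4a, at 69.8 and 89.6, stayed above every potassium and chloride channel gene shown.

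Within the 14 two-pore-domain genes, 6 were tested, and Kcnk1 and Kcnk2 rose. Their summed level was 8.38, 7.26 and 10.6 CPM per kb in CAAHR replicates 31, 34 and 36 and 1.82, 1.68 and 1.63 in GFP replicates 42, 43 and 46. Kcnk1 made up 77.7%, 83.5% and 82.1% of that sum in CAAHR and 11.2%, 15.4% and 12.5% in GFP. Without Kcnk1 the sum was 1.86, 1.20 and 1.90 against 1.62, 1.42 and 1.42 CPM per kb, and these ranges overlap. Kcnk1 was at 792% ± 177 of Kcnk2 in CAAHR and at 47.1% ± 10.4 in GFP, so the order of this pair was opposite in the 2 groups.

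Kcnk2 (chromosome 1, 189207930 to 189402273) encodes TREK-1, a leak channel opened by stretch and lipids. It was at 5.40, 3.19 and 5.10 CPM in CAAHR and at 2.36, 2.16 and 2.53 CPM in GFP, so the groups did not overlap, with CAAHR replicate 34 nearest to GFP. The log2 fold change was 0.95 ± 0.22 (edgeR quasi-likelihood test, adjusted p 0.0284). The call was kept without CAAHR replicate 34 (adjusted p 0.00227 in edgeR) and lost without any one of the other libraries: the edgeR adjusted p was 0.103 without CAAHR 31, 0.116 without CAAHR 36, 0.0758 without GFP 42, 0.0927 without GFP 43 and 0.0806 without GFP 46. An antisense gene, A430027H14Rik, shares 12.2% of its exon bases and held at most 11 counts in a library. Of the remaining tested family members, Kcnk5, an acid-sensitive leak channel, was at 0.613, 0.508 and 0.902 CPM against 1.82, 1.18 and 1.13 without passing (log2 fold change -1.02 ± 0.32, adjusted p 0.0804 in edgeR), and Kcnk6 (0.09 ± 0.27) and Kcnk3 (-0.51 ± 0.36) had overlapping groups.

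**Figure D3:**
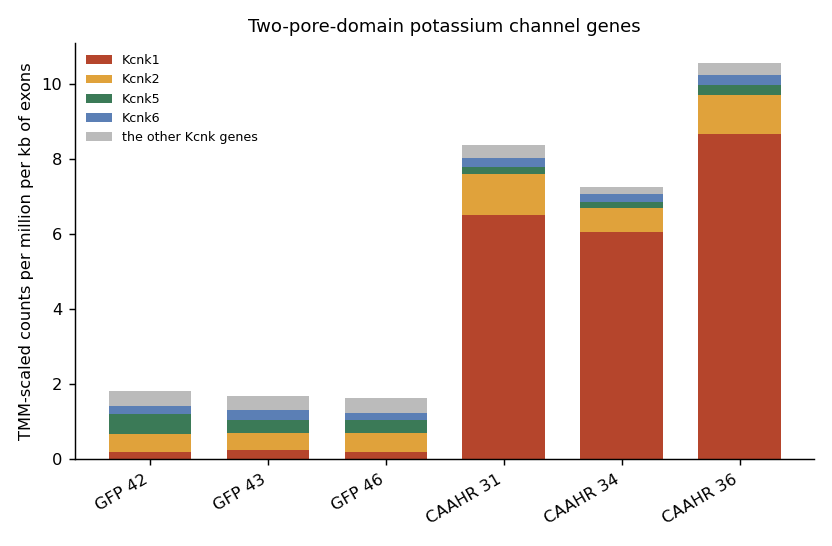
Stacked level of the 14 two-pore-domain genes in each library, in TMM-scaled CPM per kb of exons, with Kcnk1, Kcnk2, Kcnk5, Kcnk6 and the rest in separate colours. Total height is 1.63 to 1.82 in GFP and 7.26 to 10.6 in CAAHR, and Kcnk1 is 77.7% to 83.5% of each CAAHR bar.

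Of 40 voltage-gated potassium channel genes, 25 were tested, 3 rose (Kcns1, Kcnf1 and Kcnc1) and 1 fell (Kcnq5). Kcnf1 and Kcns1 encode silent subunits: these form no channel by themselves and assemble with other voltage-gated subunits, which they modify. Kcnf1 (chromosome 12, 17172100 to 17176888) was at 72.8, 116 and 76.9 CPM in CAAHR replicates 31, 34 and 36 and at 17.8, 26.3 and 18.7 CPM in GFP replicates 42, 43 and 46. Every CAAHR muscle was above every GFP muscle, and replicate 34 was highest. Its log2 fold change was 2.08 ± 0.22, a 4.23-fold rise (edgeR, adjusted p 0.00202), and it was called with each library left out. Per kb it moved from 16th to 8th of the channel genes.

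Kcns1 (chromosome 2, 164163619 to 164171113) was at 1.01, 5.76 and 2.10 CPM in CAAHR and at 0.0622, 0.0961 and 0.113 CPM in GFP, from 51, 329 and 128 counts against 3, 4 and 6. The groups were far apart, but the CAAHR muscles themselves spread widely and the GFP level rests on few counts. The log2 fold change was 4.99 ± 0.81 (edgeR, adjusted p 0.0139). Without CAAHR replicate 34 it was 4.06 and still called. The call was lost without GFP replicate 42, 43 or 46, with edgeR adjusted p of 0.0741, 0.0895 and 0.0757 and log2 fold changes of 4.78, 5.03 and 5.20.

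Kcnc1 (chromosome 7, 46396497 to 46438704) encodes a fast channel that ends action potentials quickly. It was at 118, 120 and 116 CPM in CAAHR and at 61.8, 65.1 and 93.3 CPM in GFP. The CAAHR muscles were nearly equal, and GFP replicate 46 was nearest to them. The log2 fold change was 0.69 ± 0.15 (edgeR, adjusted p 0.0262), and it was lost without CAAHR 31 (adjusted p 0.0918 in edgeR), CAAHR 36 (0.0918), GFP 42 (0.0738) or GFP 43 (0.0914). Kcnc4, of the same subfamily, was at 48.8, 55.5 and 47.6 CPM against 58.6, 80.9 and 67.5, in the opposite direction and without passing in this fit (log2 fold change -0.45 ± 0.13, adjusted p 0.0617 in edgeR). It was called lower with DESeq2 (adjusted p 0.0273) and in edgeR with upper quartile scaling (0.0364) or no filter on low counts (0.00378). It was not called in limma-voom (0.0518) or in edgeR with library size only (0.0816).

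Kcnq5 (chromosome 1, 21398403 to 21961942) encodes a slowly opening channel of the M-current family that damps excitability. It was at 11.9, 8.79 and 9.47 CPM in CAAHR and at 19.6, 19.7 and 17.4 CPM in GFP. The groups did not overlap and each was tight. It fell by 0.91 ± 0.13 on the log2 scale, 1.88-fold lower (edgeR, adjusted p 0.00371), and was called with each library left out. Kcna7, the most abundant voltage-gated potassium channel transcript per kb, was at 70.5, 74.5 and 75.0 CPM against 89.0, 81.7 and 96.8 without passing (-0.28 ± 0.10, adjusted p 0.107 in edgeR), and Kcng4, another silent subunit, overlapped between groups (0.10 ± 0.21). The median log2 fold change of the 25 tested voltage-gated genes was -0.03, and their summed level was 101 to 112 CPM per kb in CAAHR and 89.4 to 103 in GFP.

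**Figure D4:**
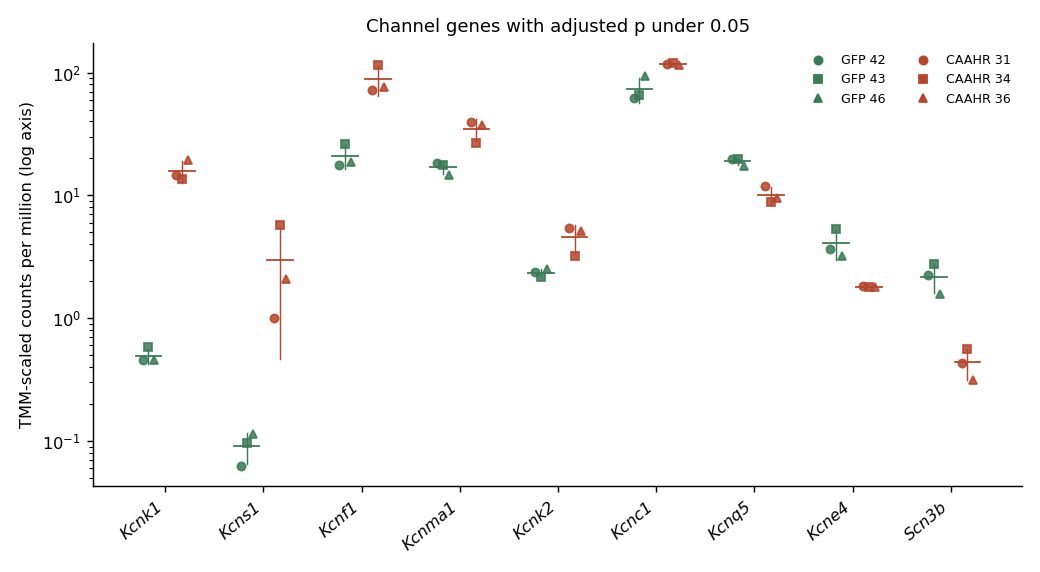
Level in each library, in TMM-scaled CPM on a log axis, of the 9 channel genes with an adjusted p under 0.05. Bars are the mean and the SD of 3 libraries and shapes mark replicates. The groups are apart for each gene, with Kcnk1 32.0-fold and Scn3b 4.98-fold apart in opposite directions and Kcns1 widely spread within CAAHR (1.01 to 5.76).

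Of 8 calcium- or sodium-activated potassium channel genes, 7 were tested and Kcnma1 rose. Kcnma1 (chromosome 14, 23289431 to 24014491) encodes the pore of the large-conductance BK channel, opened by calcium and depolarisation. It was at 39.5, 26.5 and 37.6 CPM in CAAHR replicates 31, 34 and 36 and at 18.4, 17.7 and 14.7 CPM in GFP replicates 42, 43 and 46. All CAAHR muscles were above GFP, and replicate 34 was lowest of them. The log2 fold change was 1.03 ± 0.16 (edgeR, adjusted p 0.00644), and it was called with each library left out. Kcnmb1, the BK subunit of smooth muscle, overlapped between groups (-0.15 ± 0.39), and the summed level of 8 mural cell markers was 306 to 511 CPM in CAAHR and 382 to 400 in GFP, with none called by any tool. Kcnn1 and Kcnn3, small-conductance channels, also overlapped (-0.17 ± 0.11 and 0.22 ± 0.35).

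The raised genes did not share 1 order across the CAAHR muscles. Kcnf1 and Kcns1 were highest in replicate 34, next in 36 and lowest in 31, the order of Ahr (22.8, 17.3 and 9.97 CPM) and Cyp1a1 (1680, 1517 and 1231 CPM). Kcnma1 and Kcnk2 were highest in 31, next in 36 and lowest in 34, the order of Myh7, the slow myosin heavy chain (877, 809 and 156 CPM). That order was not particular to Myh7. The summed mural (511, 393 and 306 CPM), fibroblast (453, 419 and 226) and endothelial markers (272, 270 and 199) had it too. The immune, adipocyte, and nerve and Schwann cell sums were highest in 36 and lowest in 34. Kcnk1 was highest in 36 and lowest in 34, and Kcnc1 was at 116 to 120 CPM in all 3. With 3 libraries an order is a description, and the part of transgene level, fibre type or other cell content in these values was not tested.

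**Figure D5:**
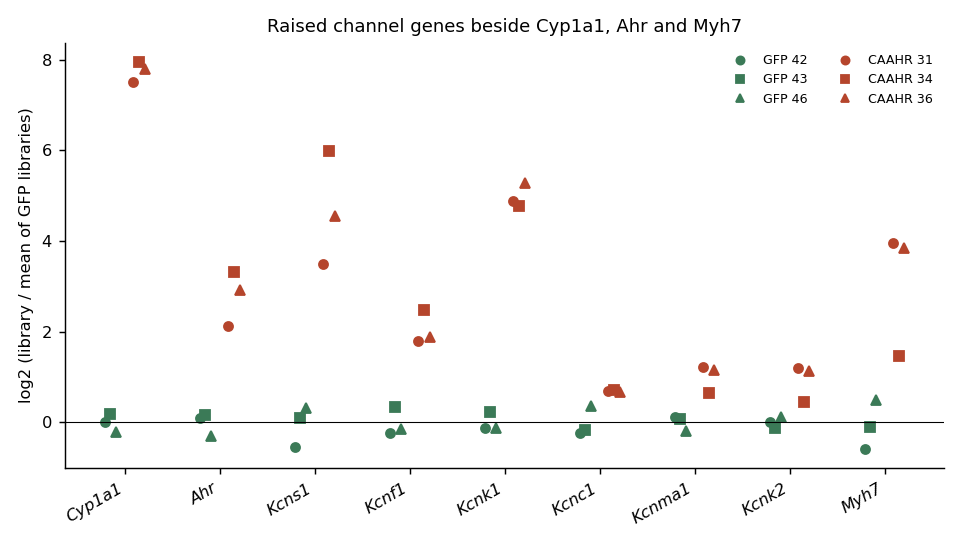
Level of each library relative to the mean of the GFP libraries, on the log2 scale, for the 6 raised channel genes, for Ahr and Cyp1a1, and for the slow-fibre gene Myh7, which did not pass the test. CAAHR replicate 34 (square) is the highest CAAHR library for Cyp1a1, Ahr, Kcns1, Kcnf1 and, by a small margin, Kcnc1 (0.71), and the lowest for Kcnma1, Kcnk2 and Myh7 (0.65, 0.44 and 1.46) and for Kcnk1 (4.77 against 4.88 and 5.29).

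Of 15 potassium channel auxiliary genes, 6 were tested and Kcne4 fell. Kcne4 (chromosome 1, 78816758 to 78820028) encodes a small membrane protein that inhibits several voltage-gated potassium channels. It was at 1.84, 1.79 and 1.79 CPM in CAAHR and at 3.67, 5.34 and 3.23 CPM in GFP, with no overlap. It fell by 1.17 ± 0.21 on the log2 scale, 2.25-fold (edgeR, adjusted p 0.0114), and was called with each library left out. The cytoplasmic beta subunits Kcnab1 (-1.04 ± 0.29, adjusted p 0.0742 in edgeR) and Kcnab2 (-1.22 ± 0.40, adjusted p 0.0990 in edgeR) had groups that did not overlap and did not pass. The summed level of the class was 1.82 to 2.07 CPM per kb in CAAHR and 2.93 to 4.77 in GFP.

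Sodium channel transcripts were among the most abundant of the set. Scn4a (chromosome 11, 106318592 to 106353288) was at 593, 643 and 655 CPM in CAAHR and at 528, 489 and 459 CPM in GFP, without overlap and without passing (log2 fold change 0.36 ± 0.11, adjusted p 0.0741 in edgeR). It made up 99.1% ± 0.155 of the summed level per kb of the 10 alpha subunit genes in CAAHR and 98.4% ± 0.136 in GFP. It passed with library size only, with DESeq2 and with no filter on low counts. Scn4b, a beta subunit, overlapped between groups (-0.11 ± 0.11).

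Scn3b (chromosome 9, 40269217 to 40291618), a beta subunit best known from neurons, was the 1 sodium channel gene called by edgeR with TMM scaling and its filter. DESeq2 called 1 alpha subunit higher and 1 lower, and 1 beta subunit higher and 1 lower. In what follows the values are those of Scn3b. Scn3b was at 0.435, 0.560 and 0.312 CPM in CAAHR and at 2.24, 2.74 and 1.57 CPM in GFP, from 19 to 32 counts against 83 to 114. Every GFP muscle was above every CAAHR muscle. It fell by 2.32 ± 0.31 on the log2 scale, 4.98-fold (edgeR, adjusted p 0.00281), and was called with each library left out. Beside it, the summed level of 8 nerve and Schwann cell markers was 45.7 to 69.4 CPM in CAAHR and 71.6 to 120 in GFP. Their median log2 fold change was -0.74, with 4 at an unadjusted p under 0.05. Of the 8, edgeR called 1 lower, Egr2, DESeq2 called 3 lower and limma-voom 1. None of the 8 was at 0, and their part in the Scn3b value was not tested. Among 5 channel genes best known from axons and Schwann cells, 2 had an unadjusted p under 0.05. None passed in limma-voom or in edgeR with TMM scaling and its filter. DESeq2 called 1 of them lower, Scn7a (adjusted p 0.0272), which edgeR also called with upper quartile scaling (0.0386) and no filter on low counts (0.0137). Scn7a was at -0.61 ± 0.17 (adjusted p 0.0605 in edgeR), Kcna2 at -0.51 ± 0.17, Kcna1 at -0.49 ± 0.35 and Scn8a at 0.02 ± 0.69 on the log2 scale.

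Inward rectifier and chloride channel genes set the resting potential of the fibre. Of the 15 inward rectifier genes 6 were tested, with a median log2 fold change of 0.00, 2 at an unadjusted p under 0.05 and none called by edgeR with TMM scaling and its filter, by DESeq2 or by limma-voom. Kcnj11, the pore of the ATP-sensitive channel, was at 146, 192 and 161 CPM in CAAHR and 141, 129 and 125 in GFP (0.34 ± 0.12, adjusted p 0.120 in edgeR). Its edgeR adjusted p was 0.0488 with library size only and 0.0397 with no filter on low counts. Kcnj2, Kcnj12 and Kcnj8 overlapped between groups with log2 fold changes of 0.02 ± 0.17, 0.17 ± 0.12 and -0.01 ± 0.12. Kcnj11 held 55.5% ± 3.03 of the summed level per kb of the class in CAAHR and 51.5% ± 0.299 in GFP. Differences smaller than these errors were not detectable with 3 libraries a group. Differences larger than these errors could also go uncalled, as for Kcnj11.

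All 7 chloride channel and exchanger genes were tested, with 4 at an unadjusted p under 0.05. None was called by edgeR with TMM scaling and its filter, and DESeq2 and limma-voom each called 1 higher and 1 lower. Clcn1 (chromosome 6, 42286685 to 42315756) was at 156, 205 and 153 CPM in CAAHR and at 242, 229 and 209 CPM in GFP, lower in all 3 muscles without passing (-0.40 ± 0.13, adjusted p 0.0962 in edgeR). It was called with DESeq2, with limma-voom and with no filter on low counts, and the opposite-strand gene Fam131b shares 8.2% of its exon bases. Clcn4 (0.34 ± 0.09, adjusted p 0.0593 in edgeR) and Clcn7 (0.30 ± 0.09, adjusted p 0.0617 in edgeR), exchangers of inner membranes, were above GFP in every CAAHR muscle without passing in that fit. Clcn4 was called with DESeq2 (adjusted p 0.0377) and in edgeR with library size only (0.0223) or no filter on low counts (0.0328). Its adjusted p was 0.0566 in limma-voom. Clcn1 made up 62.9% ± 3.31 of the summed level per kb of the class in CAAHR and 72.4% ± 0.694 in GFP, ranges that do not overlap.

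Of the 10 genes listed as main channels of the adult fibre, 7 had an unadjusted p under 0.05. In edgeR with TMM scaling and its filter, Kcnc1 and Kcnma1 rose and none fell. DESeq2 called 4 higher and 1 lower and limma-voom 3 higher and 1 lower, Clcn1 being the lower gene in both. Kcnn3, a channel gene known to rise in denervated muscle, had a log2 fold change of 0.22 ± 0.35 with overlapping groups, and no tool called it. Among the 7 other denervation genes, of which 6 were tested, Chrnd, an acetylcholine receptor subunit, rose (1.05 ± 0.23) and Gadd45a, which rises in denervated muscle, fell (-1.12 ± 0.17). Myog was higher in every CAAHR muscle without passing (1.02 ± 0.27, adjusted p 0.0523 in edgeR). The median log2 fold change of this list was 0.25, and DESeq2 called 2 higher and 1 lower. The immune channel gene Kcnn4 was at 0.395, 0.175 and 0.492 CPM against 0.477, 1.18 and 0.812 (-1.20 ± 0.46, adjusted p 0.144 in edgeR) and Kcna3 had at most 4 counts in a library. Markers of immune cells summed to 7.54 to 12 CPM in CAAHR and 15.5 to 34.2 in GFP, with none at 0. Of these 8, edgeR called 3 lower, DESeq2 6 and limma-voom 1, and their median log2 fold change was -1.36. From qPCR of selected immune genes beside uninfected muscle, the authors report a local immune response to the GFP virus. Whether it bears on the channel genes was not tested. Adipocyte markers summed to 2.49 to 15.8 CPM in CAAHR against 17.6 to 69.6 in GFP, with 2 of 5 lower. No endothelial (8) or fibroblast (5) marker passed in edgeR, with 1 of each at an unadjusted p under 0.05 and 1 fibroblast marker called by DESeq2, and with summed levels of 199 to 272 and 226 to 453 CPM in CAAHR and 209 to 258 and 360 to 431 in GFP.

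Genes whose products work beside these channels were examined as a list of 24 pumps, transporters, anchors and related channels, of which 23 were tested. Of these 1 rose and 3 fell, and their median log2 fold change was 0.08. Slc12a2, which brings chloride into cells with sodium and potassium, was at 63.6, 54.3 and 58.3 CPM in CAAHR and at 105, 99.1 and 90.9 CPM in GFP, with no overlap (-0.74 ± 0.10, adjusted p 0.00281 in edgeR). The fall was larger for Sntb1, a syntrophin of the membrane scaffold, at 0.613 to 0.870 CPM against 2.55 to 4.54 (-2.10 ± 0.28, adjusted p 0.00256 in edgeR). Hcn4, a pacemaker channel, was at 1.49 to 1.66 CPM against 2.83 to 4.35 (-1.15 ± 0.21, adjusted p 0.0108 in edgeR). The subunits that complete the ATP-sensitive channel, Abcc8 and Abcc9, had log2 fold changes of 0.38 ± 0.18 and 0.11 ± 0.12 without passing.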

How the data were processed

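Libraries of poly(A) RNA were read from both ends, 150 bases each. The authors trimmed reads with Trimmomatic 0.36, aligned them to GRCm38 with STAR 2.5.2b (versions from the submitters' processing notes) and summed uniquely assigned exon reads per gene with featureCounts. The deposited values are raw counts, neither normalised nor pooled, and 0 sample columns were left unused. Whether the libraries were stranded was not given in the sources used here, so genes that overlap a neighbour on the opposite strand carry some uncertainty.

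The analysis used edgeR 4.0.16 under R 4.3.3, with filterByExpr, TMM scaling (trimmed mean of M values), the robust quasi-likelihood F test and Benjamini-Hochberg adjustment over all 15847 tested genes at 0.05. Values per library are TMM-scaled CPM, computed here. Levels of different genes are CPM per kb of all exons of a gene in GENCODE M21 (GRCm38), where 113 of 113 members were found. Each log2 fold change has an SE computed from its F statistic. A set test was not run. Counts of libraries of the same group differed more than sampling allows (lowest chi-square per degree of freedom 23.7), so none was the same library read again. This check cannot tell whether 2 libraries came from 1 animal, since separate RNA preparations can also differ more than sampling allows.

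Named were Kcnk1, every member with an adjusted p under 0.05, the lists of main fibre, denervation, immune, mural and nerve channels, the 15 members with the highest level per kb, and the partner genes that passed. Genes described besides these (Kcnk3, Kcnk5, Kcnk6, Kcnab1, Kcnab2, Clcn7, Kcnn1, Abcc8 and Abcc9) were chosen after their values were seen. A few genes that meet the rule are counted but not reported here by name. Members and lists were chosen with earlier results of these data known. Alternatives were scaling by DESeq2 size factors, upper quartile or library size, no filter or at least 10 counts in every library, DESeq2 1.42.0, limma-voom 3.58.1 with sample weights, edgeR without robust estimation, and each library left out. In simulated data on 15627 genes for CAAHR against GFP, 77 of 100 genes changed 2-fold and 95 of 100 changed 4-fold were called with the right sign, and 14 of 186 calls were unchanged genes.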

Additional observations from a re-analysis of the deposited data

Results flagged for a closer look

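Among genes with channel names that the naming pattern leaves out, Kcne1l stood above the control level and Clca3a1 below it. Clca3a1 held 4, 8 and 5 counts in CAAHR replicates 31, 34 and 36 against 33, 32 and 16 in GFP replicates 42, 43 and 46. Clca3a1 was at -2.50 ± 0.50 on the log2 scale (adjusted p 0.0176 in edgeR). Apart from Kcne1l and Clca3a1, no tested gene of this group passed. Kcne1l, named after a potassium channel accessory subunit, had a mean of 1.12 CPM in CAAHR muscle, with 1.19, 0.980 and 1.18 CPM in replicates 31, 34 and 36 against 0.560, 0.601 and 0.472 in GFP replicates 42, 43 and 46, so every CAAHR muscle was above every GFP muscle. Its log2 fold change was 1.04 ± 0.27 (edgeR quasi-likelihood test, adjusted p 0.0459).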

How the results depend on the processing

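No paired analysis was possible because no replicate number occurs in both groups. The 9 channel genes called in the results were all called with DESeq2 size factors, upper quartile scaling and library size only. Kcns1 was not tested with at least 10 counts in every library, where the other 8 were called. The 6 higher channel genes became 11 with library size only and 11 with no filter on low counts, and the 3 lower became 5 with upper quartile scaling, 11 with no filter and 7 with DESeq2. With a library left out the counts ranged from 3 to 7 higher and from 3 to 6 lower. All called genes, 1205 as reported, numbered 2470 with no filter, 1923 with DESeq2 and 530 to 1727 with a library left out. With no filter and with DESeq2 28661 genes were tested, and for the other differences the cause was not tested. The median log2 fold change of the channel genes ranged from -0.209 (without CAAHR 31) to -0.026 with a library left out and was 0.049 with library size only. The median of all genes shifted to -0.06 with upper quartile scaling and 0.09 with library size only. Over 487 checks of 35 named genes, 446 stayed on the same side of the threshold, 25 gained a call, 16 lost it and no called gene changed sign, while 466 checks in all had the reported sign. With 3 libraries a group, changes smaller than 2-fold are often missed, and genes near 3 counts a library, such as Kcns1 in GFP, have imprecise fold changes.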
